A study of Capra hircus with 20 samples.

Results

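Collagens form the main protein scaffold around the cells of muscle and fat, and their genes were followed here in goat preadipocytes and in the adipocytes induced from them. The members were all genes whose symbol consists of COL, a number, A and a number in the authors' table of mRNA transcripts, with the transcripts of a symbol summed. This gave 44 collagen genes of 20587 genes, or 110 of 43766 transcripts. By class, 11 were fibrillar collagens, 6 were basement membrane collagens of type IV and 27 were other collagens. Of the 44 genes, 24 were tested because their level averaged 1 FPKM or more across all 20 libraries, namely 9 fibrillar, 2 basement membrane and 13 other genes. FPKM scales the fragments of a transcript by its length and by the mapped reads of the library, so levels of different genes are compared here per length.

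The cells came from 5 male Jianzhou Daer goats of 7 days of age. Intramuscular cells were taken from the longissimus dorsi muscle and subcutaneous cells from subcutaneous fat, both freed with collagenase and used at passage 3 in DMEM/F12 with fetal bovine serum. Intramuscular preadipocytes (IMPA) and subcutaneous preadipocytes (SPA) were harvested on day 0, and intramuscular adipocytes (IMA) and subcutaneous adipocytes (SA) after 3 days in the same medium with oleic acid. No group was kept for 3 days without oleic acid, so induction and time in culture cannot be told apart. A change with induction means here day 3 against day 0. Each group held 5 libraries, described as biological replicates, with no goat named for a library, so p values measure the spread between these libraries.

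Fibrillar collagens assemble into the striated fibrils that give tissue its tensile strength. Type I is built from COL1A1 and COL1A2 chains and type III from COL3A1 chains alone, while types V and XI sit in the same fibrils and set where they start and how thick they grow. Type IV collagen instead forms a sheet-like network in the basement membrane that surrounds each muscle fibre and each fat cell, and type VI forms beaded filaments between the fibrils and that membrane and is abundant in fat. Other collagens attach to fibrils, form short networks or span the cell membrane.

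The FPKM of the mRNA table summed to between 373889 and 413880 in a library, with 27518 to 32122 transcripts and 34 to 43 collagen genes above 0. How many fragments stand behind a value is not known. In the study, Oil Red O staining showed lipid droplets 3 days after differentiation, and Pref-1 mRNA was lower than in preadipocytes. The study took this as a sign that both adipocyte models were established. Marker mRNA in the deposited values did not follow the labels in every respect. Summed FPKM of 9 skeletal muscle markers was 3299 to 3792 in IMPA and 11776 to 12534 in IMA, against 6.51 to 22.8 in SPA and 7.39 to 9.19 in SA. In contrast, 7 adipocyte markers together reached only 6.42 to 12.8 in any library, with ADIPOQ, PLIN1 and LEP under 1 FPKM throughout. FABP4 was not matched by symbol and is missing from that sum. Only 2 of the 7 markers were tested, and they moved in opposite directions. CD36 rose with intramuscular and subcutaneous induction (log2 fold changes 2.24 and 0.84, adjusted p = 2.85e-10 and 2.62e-05 in limma). CEBPA fell in both (-0.68 and -0.31, adjusted p = 4.28e-06 and 0.00794). Fibroblast and preadipocyte markers summed to 1026 to 1422 in IMPA, 1029 to 1170 in IMA, 7006 to 7391 in SPA and 5238 to 5767 in SA, and 5 proliferation markers to 95.1 to 117, 84.1 to 104, 36.0 to 41.3 and 189 to 213. Endothelial, immune and Schwann cell markers summed to at most 2.86 FPKM, cartilage markers to at most 6.46, and the epithelial list to 20.6 to 35.9 in intramuscular libraries, nearly all of it CDH1, and at most 0.284 in subcutaneous ones. The share of reads that mapped was lower in every IMA than every IMPA library and in every SA than every SPA library, so that share and the stage cannot be told apart. It was also higher in every IMPA than every SPA library and in every IMA than every SA library, so the same holds for the cell type. IMPA stood far above the other groups in that share, so the gap was wider for intramuscular than for subcutaneous induction.

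COL3A1 and COL1A2, the genes of type III collagen and of the second chain of type I, stood far above the other collagens in every group. COL3A1 held 50.4% to 62.9% of the summed collagen FPKM of a library and COL1A2 18.5% to 26.9%, and the fibrillar class as a whole held 92.2% to 95.2%. By the mean over the 20 libraries COL5A2 and then COL11A1 followed, although COL11A1 was above COL5A2 in IMPA. Summed fibrillar FPKM was 7288 ± 789 (SD, n = 5) in IMPA, 8299 ± 275 in IMA, 6854 ± 348 in SPA and 8078 ± 536 in SA. The type IV genes summed to 26.3 ± 1.80 in IMPA and 23.2 ± 2.69 in IMA, but 1.29 ± 0.0906 in SPA and 2.36 ± 0.418 in SA, with no overlap between cell types. The other collagens summed to 409 ± 19.2, 412 ± 16.3, 517 ± 61.8 and 480 ± 66.7.

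**Figure D1:**
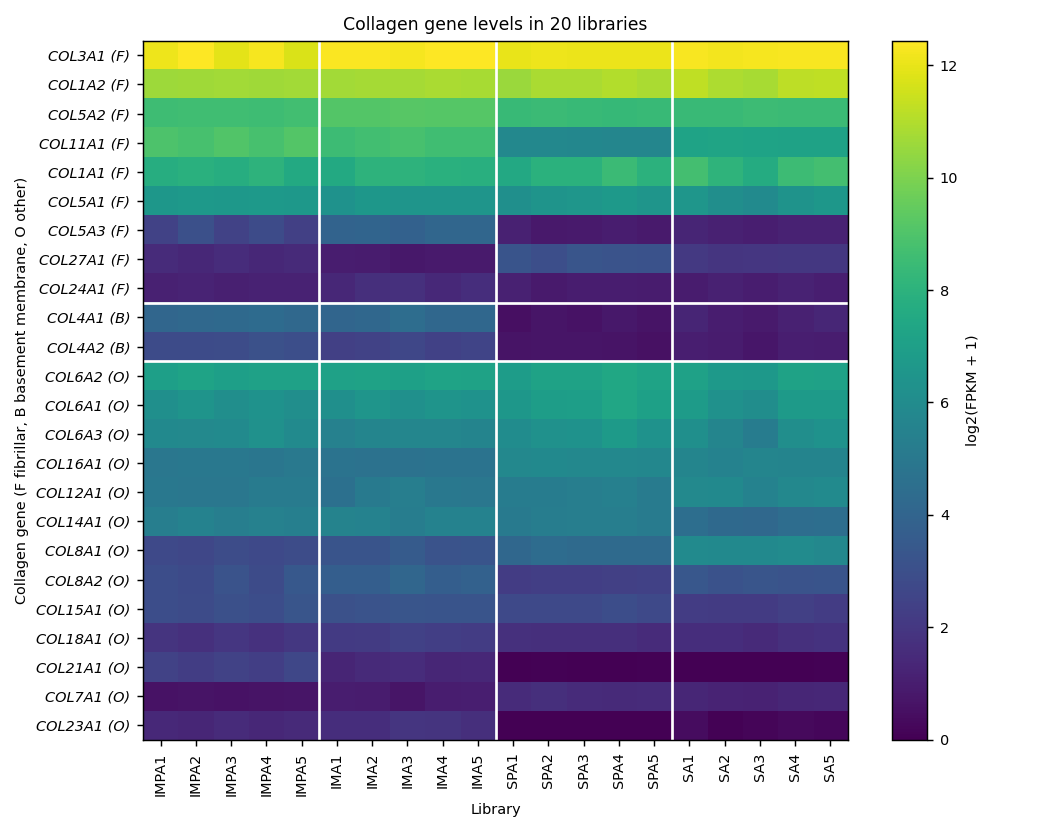
Level of the 24 tested collagen genes in each of the 20 libraries as log2(FPKM + 1), genes in rows ordered by mean level within the fibrillar (F), basement membrane (B) and other (O) classes, libraries in columns. COL3A1 is the brightest row throughout, and COL4A1, COL4A2, COL21A1 and COL23A1 are darker in every subcutaneous library than in any intramuscular one, with COL21A1 near 0 there and COL4A1 at up to 1.52 FPKM.

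With induction of the intramuscular cells, fibrillar collagen genes moved both ways. COL5A2, COL5A3, COL24A1 and COL1A2 rose, and COL11A1, COL5A1 and COL27A1 fell. Of the type IV genes, COL4A2 fell, while both type VIII genes and both multiplexins, COL15A1 and COL18A1, rose. In all, 10 of the 24 genes rose and 7 fell at an adjusted p under 0.05, where 19.9% of all 11432 genes tested rose and 40.2% fell (60.1% in all). No overlap between IMA and IMPA libraries was seen for 14 collagen genes and 43.5% of all genes. The median log2 fold change was 0.08 for the collagen genes and -0.09 for all genes. With the mapped share as a covariate, which is largely aligned with the stage, 6 collagen genes rose and 1 fell, beside 4.4% and 2.4% of all genes (6.8% in all). COL5A2, COL8A1, COL8A2, COL15A1, COL18A1 and COL23A1 still rose then, the single fall was COL14A1, and the other 11 calls were lost. The summed muscle markers were higher in every IMA than in every IMPA library, and their part in the result was not tested. Within that list MYOD1 fell (log2 fold change -0.71, adjusted p = 1.68e-06), MYOG rose by 0.18 and the others rose by more. As these are bulk samples, fewer cells of a type and less RNA per cell cannot be told apart.

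With induction of the subcutaneous cells, COL8A1 and COL11A1 had the largest rises on the log2(FPKM + 1) scale, and COL3A1, COL1A2, COL5A3, both type IV genes, COL8A2, COL12A1 and COL23A1 rose too. COL23A1 had a larger ratio of group means (18.6) but was at most 0.0175 FPKM in SPA and 0.340 in SA. It was tested only because of its intramuscular levels. COL27A1, COL14A1, COL15A1, COL7A1, COL16A1 and COL6A1 fell. These 10 rises and 6 falls among 24 genes stand beside 26.1% and 26.0% of all genes (52.1% in all), and 13 collagen genes had no overlap beside 38.8% of all genes. The median log2 fold change was 0.06 for collagen genes and -0.01 for all genes. With the mapped share as a covariate, 4 rose and 8 fell, beside 18.5% and 14.9% of all genes (33.4% in all). The rises of COL4A1, COL4A2, COL3A1, COL1A2, COL5A3 and COL23A1 were then lost, and COL6A2 and COL6A3 fell. The summed proliferation markers were higher in every SA than in every SPA library and the fibroblast and preadipocyte markers lower, and their part was not tested.

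**Figure D2:**
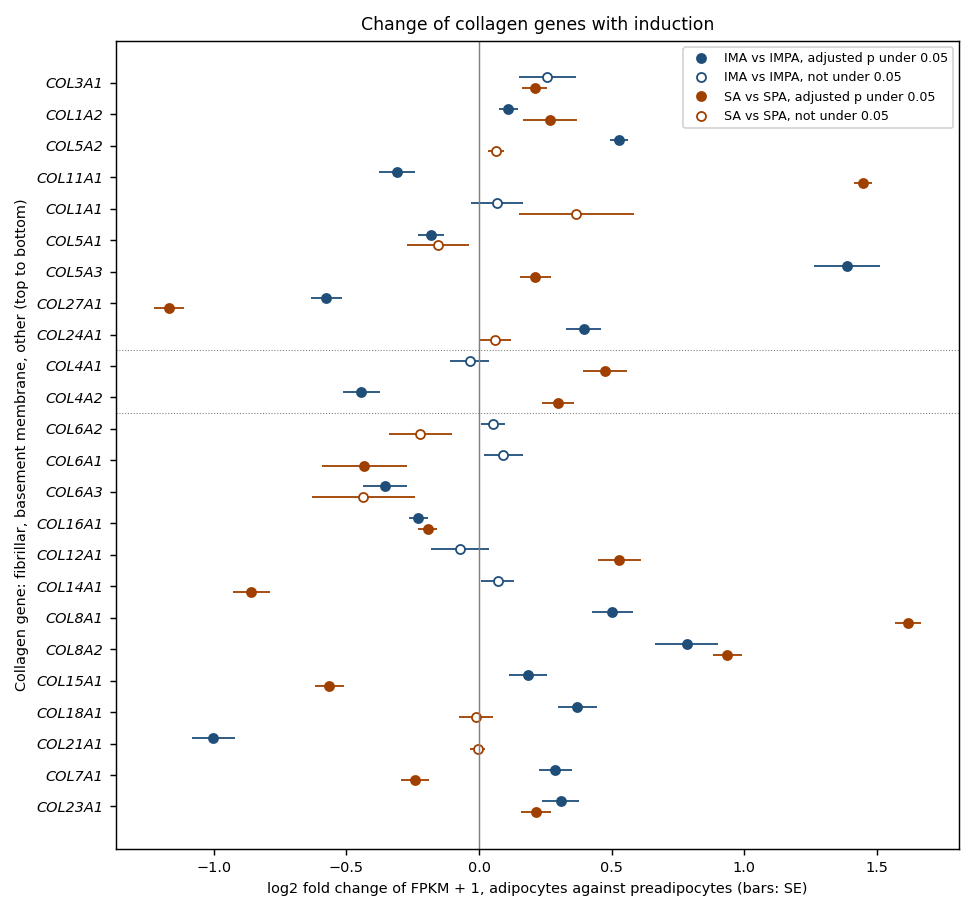
Change of the 24 tested collagen genes with induction, as the log2 fold change of FPKM + 1 with its standard error, in intramuscular (IMA vs IMPA, blue) and subcutaneous cells (SA vs SPA, orange); filled points have an adjusted p under 0.05. COL11A1 lies at -0.31 in one and 1.45 in the other, and COL8A1 and COL8A2 lie right of 0 in both.

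Across both cell types, 5 genes rose in each (COL1A2, COL5A3, COL8A1, COL8A2 and COL23A1) and 2 fell in each (COL16A1 and COL27A1). COL11A1 and COL4A2 fell in intramuscular and rose in subcutaneous cells, and COL15A1 and COL7A1 did the reverse. COL1A1 and COL6A2 passed the test in neither. The change itself differed between cell types for 15 of the 24 genes, with a more positive change in intramuscular cells for 9 and a more negative one for 6, beside 20.7% and 34.6% of all genes (55.3% in all). With the mapped share as a covariate these were 5 and 4, beside 8.6% and 9.9% of all genes (18.6% in all). COL4A1, COL4A2, COL5A3, COL6A1, COL7A1, COL12A1, COL14A1 and COL24A1 were then not called, whereas COL3A1 and COL8A2 were. The smallest p values of this interaction were those of COL11A1 (difference of log2 changes -1.76 ± 0.079, SE, adjusted p = 9.23e-14), COL8A1 (-1.12 ± 0.095, adjusted p = 2.49e-09) and COL21A1 (-0.998 ± 0.094, adjusted p = 1.24e-08). COL21A1 was at most 0.0641 FPKM in any subcutaneous library and was tested only because of its intramuscular levels, so its difference rests on the intramuscular change. Of all genes called in the interaction, 37.5% were positive, and 48.5% were under quantile normalization. For the collagens that split was 9 and 6, against 9 and 7 with COL3A1 called too.

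Between cell types, both tested type IV genes, COL5A3, COL11A1, COL21A1 and COL23A1 were higher in intramuscular cells at both stages. COL8A1 and COL27A1 were higher in subcutaneous cells. COL4A2, COL21A1 and COL23A1 averaged under 1 FPKM in SPA and in SA, and COL4A1 in SPA (0.587, with 1.21 in SA). COL7A1 averaged under 1 FPKM in IMPA and in IMA. These genes were tested only because of the cell type where they were higher. The filter thus favoured a call between cell types for them, and these calls are counted below. Before induction 13 collagen genes were higher in IMPA and 7 lower than in SPA, beside 42.3% and 32.9% of all genes (75.1% in all), and 13 had no overlap, beside 63.4%. After induction 12 were higher and 7 lower in IMA than in SA, beside 29.0% and 43.4% of all genes (72.4% in all), and 17 had no overlap, beside 58.6%. In both comparisons 12 genes were higher in intramuscular cells (COL4A1, COL4A2, COL5A2, COL5A3, COL8A2, COL11A1, COL14A1, COL15A1, COL18A1, COL21A1, COL23A1 and COL24A1) and 5 were lower (COL7A1, COL8A1, COL12A1, COL16A1 and COL27A1). The median log2 difference was 0.17 for the collagens and 0.05 for all genes before induction, and 0.35 and -0.09 after it. Under quantile normalization the split before induction was 9 higher, COL3A1 among them, and 8 lower, beside 35.4% and 40.8% of all genes. COL14A1, COL15A1, COL18A1 and COL24A1 of the listed genes were not called in that setting. The split before induction was 8 and 4 with the mapped share as a covariate, which also separates the cell types, beside 12.0% and 9.2%. Of the genes listed for both comparisons, COL5A2, COL8A2, COL12A1, COL15A1, COL18A1 and COL24A1 were not called there. After induction the split was 11 and 4 with that covariate, beside 20.9% and 33.1%, and COL7A1 and COL8A2 of the listed genes were not called. With only the most abundant transcript of each gene, COL14A1, COL15A1, COL16A1 and COL18A1 were not called before induction. COL15A1 and COL16A1 were not called after it, and COL23A1 was below the filter. The muscle and fibroblast marker sums given above separate the cell types without overlap, and their part in these differences was not tested.

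**Figure D3:**
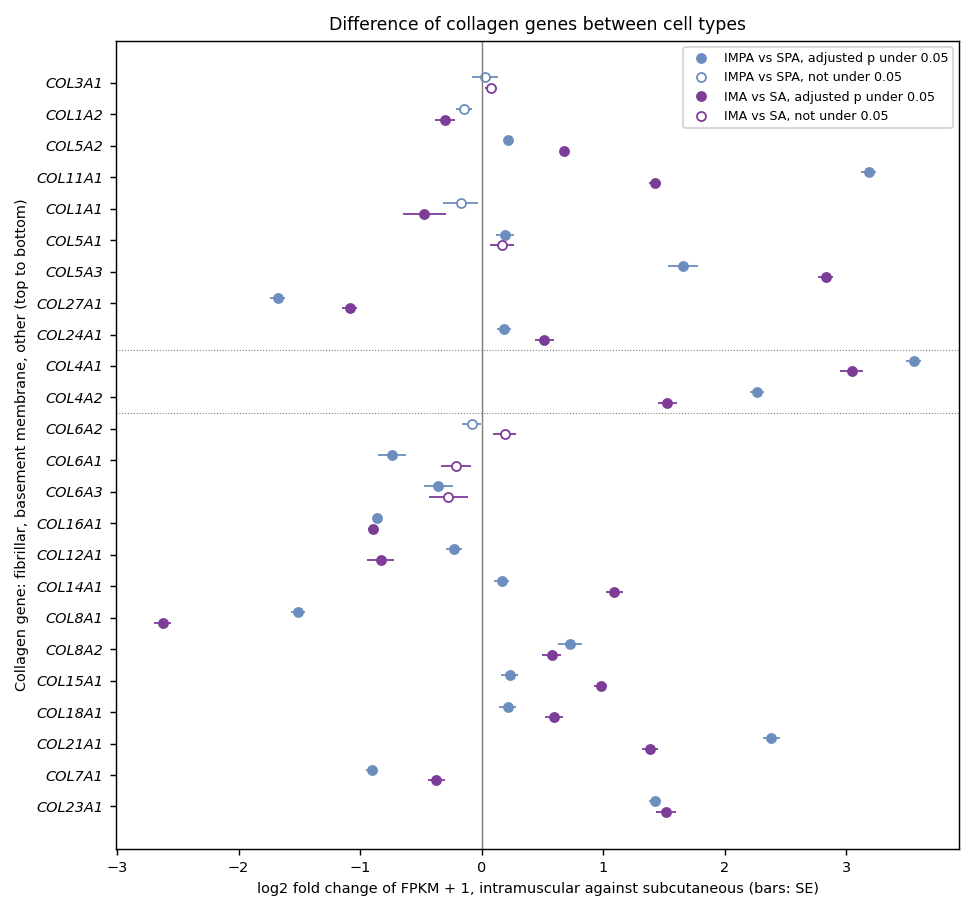
Difference of the 24 tested collagen genes between cell types, as the log2 fold change of FPKM + 1 of intramuscular against subcutaneous libraries with its standard error, before (IMPA vs SPA) and after induction (IMA vs SA); filled points have an adjusted p under 0.05. COL4A1 lies farthest right, at 3.56 and 3.05, and COL8A1 farthest left after induction, at -2.63.

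Among the fibrillar genes, COL3A1, the sole chain of type III collagen, was the most abundant collagen in every library. It measured 4494, 5528, 3850.2, 4932 and 3417 FPKM in IMPA and 5208, 5244, 4861, 5532 and 5366 in IMA. In subcutaneous cells it measured 4135, 4443, 4368, 4308 and 4259 in SPA and 5122, 4795, 4866, 5051 and 5041 in SA. The SA libraries all lay above the SPA libraries, whereas IMPA libraries spread widely and overlapped IMA. COL3A1 rose with subcutaneous induction (log2 fold change 0.21 ± 0.048, SE, adjusted p = 0.00301), and the intramuscular difference of 0.26 ± 0.11 had an adjusted p of 0.0580. Without IMPA2 that adjusted p was 0.00858 and without IMPA4 0.0411. Quantile normalization, which sets a value by the rank of the gene in its library, turned the difference to -0.32. The value was 0.32 in IMPA vs SPA and -0.32 in IMA vs SA, the same size each time. The p values of COL3A1 in that setting thus do not measure the spread of its FPKM, and no change is read from them. Between cell types COL3A1 differed by 0.026 ± 0.11 before and 0.075 ± 0.049 after induction, with adjusted p of 0.831 and 0.185. With the mapped share as a covariate the difference before induction was 1.43 (adjusted p = 7.66e-04), so its lack of a call there depends on the model.

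COL1A2, the second chain of type I collagen, measured 1575, 1624, 1673, 1606 and 1667 FPKM in IMPA and 1667, 1754, 1746, 1848 and 1774 in IMA. It measured 1488, 1864, 1842, 2025 and 1831 in SPA and 2402, 1899, 1819, 2383 and 2427 in SA. It rose with induction by a log2 fold change of 0.11 ± 0.036 in intramuscular (adjusted p = 0.0197) and 0.27 ± 0.10 in subcutaneous cells (adjusted p = 0.0451), with overlap in both. The subcutaneous call was lost when any of 7 single libraries was left out (SA1, SA4, SA5, SPA1, SPA2, SPA3 or SPA5), and the intramuscular call without IMA4 or IMPA1. The intramuscular call was also lost in 1 fit of all 4 groups (adjusted p = 0.241), under quantile normalization (0.0755) and with the mapped share as a covariate (0.451), and the subcutaneous value turned to -0.14 with that covariate (0.559). After induction COL1A2 was lower in IMA than SA (-0.30 ± 0.081, adjusted p = 0.00414).

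COL1A1, the first chain of type I collagen, was added after its values were seen. It was much lower per length than its partner, at 223 ± 28.4 FPKM in IMPA, 233 ± 29.3 in IMA, 255 ± 61.2 in SPA and 335 ± 99.4 in SA. Its libraries ranged from 197 to 427 FPKM within SA alone. The stage differences of 0.068 ± 0.10 and 0.37 ± 0.22 did not pass the test, the second with an adjusted p of 0.175 that became 0.0252 without SA3. IMA was lower than SA (-0.47 ± 0.18, adjusted p = 0.0296), a call lost when any of 5 single libraries was left out (IMA1, IMA5, SA1, SA4 or SA5).

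The type V chains, which help to set fibril diameter, did not move together. COL5A2 measured 375, 391, 396, 379 and 405 FPKM in IMPA and 541, 552, 584, 568 and 561 in IMA, and every IMA library was above every IMPA library. It rose 1.44-fold by group means (0.53 ± 0.034, adjusted p = 1.57e-07), the smallest p of any collagen gene in that comparison. In SPA it measured 331, 350.1, 334, 326 and 333 and in SA 346, 340.5, 364, 349.7 and 350.2, a difference of 0.065 ± 0.031 that did not pass the test (adjusted p = 0.103). The intramuscular change was larger by 0.46 ± 0.045 (adjusted p = 1.94e-08).

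COL5A3, a chain of lower and more restricted expression, measured 4.45, 7.32, 4.42, 6.14 and 4.06 FPKM in IMPA and 14.8, 14.9, 13.6, 16.1 and 16.4 in IMA, which did not overlap. SPA libraries held 1.20, 0.820, 0.869, 1.02 and 0.875 and SA libraries 1.42, 1.23, 1.08, 1.28 and 1.32. The gene rose 2.87-fold with intramuscular induction (1.39 ± 0.12, adjusted p = 2.39e-06) and by 0.21 ± 0.060 with subcutaneous induction (adjusted p = 0.0101), and IMA exceeded SA 12.0-fold by group means (2.83 ± 0.062, adjusted p = 1.72e-14). The intramuscular change was 0.17 with the mapped share as a covariate (adjusted p = 0.714), and the subcutaneous call was lost there (0.147) and in 1 fit of all 4 groups (0.0883). As everywhere on the log2(FPKM + 1) scale, the fold change of so low a gene is understated. COL5A1 fell slightly with intramuscular induction, from 100.1 ± 4.22 to 88.4 ± 5.88 FPKM (-0.18 ± 0.048, adjusted p = 0.00682), and its subcutaneous difference of -0.16 ± 0.12 did not pass the test. The intramuscular call was lost in 1 fit of all 4 groups (adjusted p = 0.108) and with the mapped share as a covariate (-0.37, adjusted p = 0.202).

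COL11A1, the type XI chain that nucleates thin fibrils in cartilage and other tissues, moved in opposite directions. IMPA libraries held 499, 446, 526, 445 and 554 FPKM and IMA libraries 368, 401, 442, 387 and 390.2, all of them below every IMPA library. SPA libraries held 55.4, 55.0, 53.8, 51.4 and 50.7 and SA libraries 149, 152, 149, 144 and 141. It was 9.28-fold higher in IMPA than in SPA by group means (3.19 ± 0.061, adjusted p = 1.68e-13), and 2.71-fold higher in IMA than in SA (1.43 ± 0.048, adjusted p = 2.35e-12). With induction it fell in intramuscular cells (-0.31 ± 0.068, adjusted p = 0.00192) and rose 2.76-fold in subcutaneous cells (1.45 ± 0.034, adjusted p = 3.56e-11). With the mapped share as a covariate the intramuscular change was 0.34 with an adjusted p of 0.162. COL11A2, its usual partner in cartilage, stayed at or under 0.355 FPKM and COL2A1, the main cartilage collagen, at or under 0.0172.

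COL27A1, a fibrillar collagen with short interruptions in its helix, fell in both cell types. It measured 1.92, 1.61, 2.02, 1.61 and 1.82 FPKM in IMPA and 0.993, 0.948, 0.745, 0.858 and 0.835 in IMA. In SPA it measured 8.26, 6.96, 8.64, 8.11 and 7.83 and in SA 3.17, 2.75, 2.95, 2.98 and 3.06. Neither pair of groups overlapped, and the falls were -0.58 ± 0.060 (adjusted p = 7.77e-06) and -1.17 ± 0.057 (adjusted p = 6.91e-09) on the log2 scale. SPA held 4.43 times the IMPA level by group means. The intramuscular fall was -0.44 with the mapped share as a covariate and was not called (adjusted p = 0.242). COL24A1, another minor fibrillar gene, rose in intramuscular cells from 1.26 ± 0.0871 to 1.98 ± 0.268 FPKM (0.39 ± 0.066, adjusted p = 2.81e-04) and measured 0.994 ± 0.133 and 1.08 ± 0.147 in SPA and SA.

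**Figure D4:**
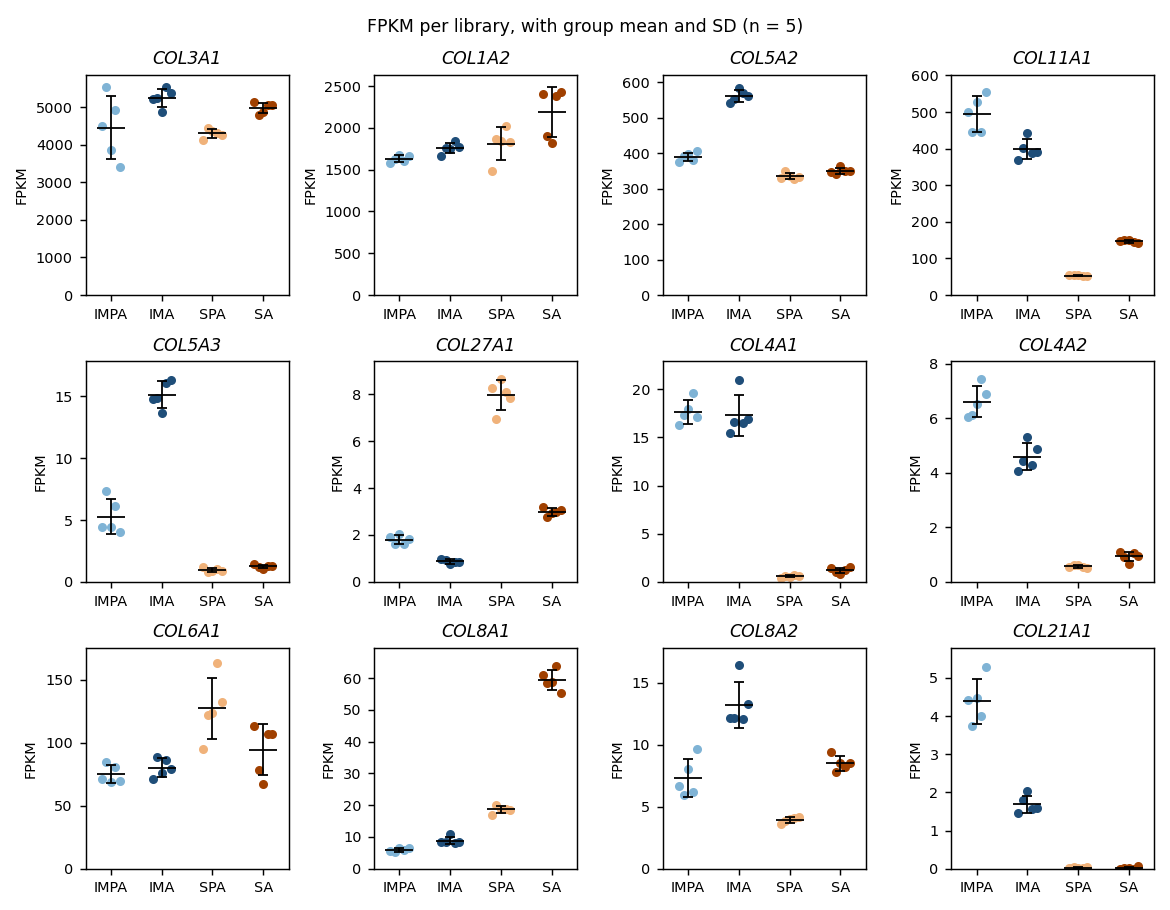
FPKM of 12 collagen genes in each library (points), with the group mean and SD as bars (n = 5 libraries per group), on linear axes that start at 0. COL4A1 is between 15.4 and 21.0 in the intramuscular libraries and at most 1.52 in the subcutaneous ones, and COL8A1 is highest in SA.

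Both tested type IV genes separated the cell types without overlap. COL4A1 and COL4A2 encode the chains found in nearly all basement membranes, and they lie next to each other in the genome. COL4A1 measured 16.2, 17.3, 17.9, 19.6 and 17.2 FPKM in IMPA and 15.4, 16.6, 21.0, 16.5 and 16.8 in IMA. SPA libraries held 0.443, 0.651, 0.510, 0.733 and 0.599 and SA libraries 1.42, 1.02, 0.863, 1.24 and 1.52. The lowest intramuscular library was thus far above the highest subcutaneous one, and IMPA exceeded SPA 30.1-fold and IMA exceeded SA 14.2-fold by group means (3.56 ± 0.062 and 3.05 ± 0.093 on the log2 scale, adjusted p = 7.75e-14 and 8.21e-13). COL4A1 rose with subcutaneous induction (0.47 ± 0.083, adjusted p = 4.53e-04), and the intramuscular difference was -0.035 ± 0.074 (adjusted p = 0.702).

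COL4A2 followed the same order between cell types but not with induction. IMPA libraries held 6.06, 6.12, 6.54, 7.43 and 6.90 FPKM and IMA libraries 4.07, 4.45, 5.33, 4.27 and 4.87. SPA libraries held 0.563, 0.627, 0.633, 0.560 and 0.494 and SA libraries 1.08, 0.915, 0.665, 1.07 and 0.968. IMPA exceeded SPA 11.5-fold (2.27 ± 0.057, adjusted p = 1.98e-12). The gene fell with intramuscular induction (-0.44 ± 0.071, adjusted p = 2.10e-04) and rose with subcutaneous induction (0.30 ± 0.060, adjusted p = 0.00132), without overlap in either. These values became -0.15 and 0.26 with the mapped share as a covariate, and neither was called (adjusted p = 0.761 and 0.150).

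COL4A3 and COL4A4, chains of specialised membranes such as those of kidney and also neighbours in the genome, were too low to be tested but showed the same split. COL4A4 measured 0.952, 0.986, 1.19, 1.06 and 1.21 FPKM in IMPA and 0.562, 0.913, 0.912, 0.937 and 0.733 in IMA, and at most 0.00547 in any SPA or SA library. COL4A3 measured 0.785 to 1.07 in IMPA, 0.374 to 0.559 in IMA and at most 0.0128 in subcutaneous libraries. COL4A5 did not follow that split, with 0.0822 to 0.158 FPKM in IMPA and 0.0275 to 0.0953 in IMA. It held 0.0795 to 0.166 in SPA and 0.149 to 0.244 in SA. COL4A6 stayed at or under 0.0322 in every library.

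Type VI collagen was the most abundant of the other classes. COL6A2 measured 128, 148, 129, 137 and 136 FPKM in IMPA, and IMA held 138, 142, 131, 147 and 143. SPA held 117, 142, 143, 167 and 149.7 and SA 137, 103, 99.6, 142 and 139. None of the 4 comparisons of COL6A2 passed the test, with adjusted p between 0.0850 and 0.353, although IMPA vs SPA reached 0.0285 without SPA1, and IMA vs SA passed without SA4 or without SA5.

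COL6A1, which lies beside COL6A2 in the genome, measured 71.6, 84.8, 69.3, 81.1 and 69.9 FPKM in IMPA and 71.0, 89.1, 75.9, 86.4 and 79.3 in IMA. It measured 95.5, 122, 124, 164 and 132 in SPA and 114, 78.1, 67.4, 107 and 107 in SA. IMPA was lower than SPA without overlap (-0.73 ± 0.11, adjusted p = 7.81e-05). COL6A1 fell with subcutaneous induction (-0.43 ± 0.16, adjusted p = 0.0390), with overlap, and the call was lost when any of 6 single libraries was left out (SA2, SA3, SPA2, SPA3, SPA4 or SPA5). The intramuscular difference was 0.092 ± 0.073 (adjusted p = 0.299).

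COL6A3, the largest type VI chain, measured 59.2, 56.4, 61.8, 78.1 and 59.8 FPKM in IMPA and 42.6, 50.2, 51.8, 51.5 and 48.6 in IMA. SPA held 64.1, 78.2, 79.6, 107 and 78.8 and SA 72.5, 49.2, 36.9, 69.0 and 79.4. It fell with intramuscular induction without overlap (-0.35 ± 0.083, adjusted p = 0.00301), a call lost in 1 fit of all 4 groups (0.0603) and with the mapped share as a covariate (0.595). In subcutaneous cells the difference was -0.44 ± 0.19 with an adjusted p of 0.0775, and 0.0367 without SA5. Before induction it was lower in IMPA than SPA (-0.36 ± 0.12, adjusted p = 0.0166).

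Type VIII collagen, a short-chain network collagen of vessel walls and the cornea, rose in both cell types. COL8A1 measured 5.62, 5.33, 6.49, 5.77 and 6.37 FPKM in IMPA and 8.35, 8.45, 10.9, 8.08 and 8.36 in IMA. SPA libraries held 16.9, 20.1, 18.9, 19.0 and 18.6 and SA libraries 60.8, 58.4, 58.8, 63.8 and 55.3, so the 4 groups did not overlap at all. The rise was 3.18-fold by group means with subcutaneous induction (1.62 ± 0.048, adjusted p = 1.34e-10) and 1.49-fold with intramuscular induction (0.50 ± 0.078, adjusted p = 1.74e-04). SA exceeded IMA 6.73-fold (log2 fold change of IMA against SA -2.63 ± 0.070, adjusted p = 1.68e-13). Its partner COL8A2 also rose in both, from 7.31 ± 1.53 to 13.2 ± 1.88 FPKM and from 3.96 ± 0.234 to 8.49 ± 0.579, but was higher in intramuscular cells at each stage, where COL8A1 was lower.

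Of the fibril-associated collagens, which sit on the surface of fibrils, COL21A1 was detected mainly in intramuscular cells. It measured 4.42, 3.74, 4.48, 4.01 and 5.29 FPKM in IMPA and 1.45, 1.79, 2.03, 1.55 and 1.60 in IMA, and at most 0.0641 in any subcutaneous library. It fell with intramuscular induction without overlap (-1.002 ± 0.081, adjusted p = 1.17e-06), but with the mapped share as a covariate the change was -0.32 (adjusted p = 0.382). COL14A1 and COL12A1 changed in subcutaneous cells, COL14A1 falling from 36.7 ± 2.68 to 19.8 ± 1.93 FPKM (-0.86 ± 0.068, adjusted p = 5.50e-07) and COL12A1 rising from 37.7 ± 2.87 to 55.1 ± 6.60 (0.53 ± 0.080, adjusted p = 1.55e-04). Their intramuscular differences of 0.070 ± 0.062 and -0.072 ± 0.11 did not pass the test. COL16A1 fell, with a log2 change of -0.23 in intramuscular and -0.19 in subcutaneous cells, and SPA held 1.84 times the IMPA level.

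The multiplexins COL15A1 and COL18A1 belong to basement membrane zones, and COL18A1 is the source of endostatin. COL18A1 rose with intramuscular induction, from 2.68 ± 0.342 to 3.75 ± 0.373 FPKM (0.37 ± 0.074, adjusted p = 0.00109). COL15A1 fell with subcutaneous induction, from 5.89 ± 0.385 to 3.66 ± 0.234 (-0.56 ± 0.054, adjusted p = 2.89e-06), and rose by 0.18 ± 0.071 in intramuscular cells (adjusted p = 0.0401), a call lost when any of 8 single libraries was left out (IMA2, IMA3, IMA4, IMA5, IMPA1, IMPA2, IMPA3 or IMPA4). COL7A1, the collagen of anchoring fibrils, rose from 0.570 ± 0.0470 to 0.921 ± 0.158 FPKM in intramuscular cells and fell from 1.93 ± 0.169 to 1.48 ± 0.133 in subcutaneous cells. COL23A1, a membrane-spanning collagen, measured 1.53 to 1.87 FPKM in IMPA, 2.05 to 2.78 in IMA, 0 to 0.0175 in SPA and 0.0363 to 0.340 in SA.

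The 20 genes below the filter were low throughout, and 12 of them were under 0.3 FPKM in every library. COL25A1, COL9A1, COL4A3 and COL4A4 were at least 0.1 FPKM in all 10 intramuscular and under 0.1 in all 10 subcutaneous libraries. COL25A1, a membrane-spanning collagen that muscle fibres express during innervation, measured 1.12, 1.44, 0.716, 1.32 and 0.798 FPKM in IMPA and 1.83, 2.67, 1.94, 1.66 and 1.55 in IMA, and at most 0.0247 in subcutaneous libraries. COL17A1, a membrane-spanning collagen of epithelial attachment, went the other way, with 0.368 to 0.627 in IMPA and 0.392 to 0.599 in IMA against 1.01 to 1.16 in SPA and 0.938 to 1.32 in SA. These genes were not tested, and those named were chosen after their values were seen.

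Ratios of chains within a library do not depend on scaling between libraries, so 8 ratios were compared in the 4 pairs of groups with two-sided exact permutation tests of 252 divisions, adjusted over the 32 comparisons. They still depend on how well each gene is measured, so they are not ratios of chains made. The FPKM of COL1A1 was a small fraction of that of COL1A2, with a ratio of 0.108 to 0.176 over the 20 libraries and group means of 0.137 ± 0.0193, 0.133 ± 0.0153, 0.139 ± 0.0201 and 0.151 ± 0.0274 (SD) in IMPA, IMA, SPA and SA. None of its comparisons passed the test, with exact adjusted p between 0.404 and 0.860. COL3A1/COL1A1 and COL12A1/COL1A1 did not pass it either, the smallest adjusted p of each being 0.0952 and 0.0677 in IMA vs SA. Altogether 14 of the 32 comparisons passed, all at the same exact adjusted p of 0.0363, and the smallest p that 5 against 5 libraries can give is 0.00794.

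Within type V, the ratio COL5A1/COL5A2 measured 0.255, 0.267, 0.246, 0.277 and 0.242 in IMPA and 0.147, 0.174, 0.153, 0.156 and 0.156 in IMA. The IMA ratios were all below the IMPA ratios, and IMA was also lower than SA, which held 0.227 ± 0.0420 (SD, n = 5). COL5A1 relative to COL1A1 fell with induction in both cell types, from 0.454 ± 0.0442 to 0.381 ± 0.0281 and from 0.353 ± 0.0411 to 0.246 ± 0.0380, and was higher in intramuscular cells at both stages. With the most abundant transcript the intramuscular fall was not called (-0.19 on the log2 scale, exact adjusted p = 0.190). Within type IV, COL4A1/COL4A2 was 2.68, 2.83, 2.74, 2.64 and 2.49 in IMPA and 3.79, 3.72, 3.93, 3.86 and 3.46 in IMA, without overlap. It was 1.03 ± 0.235 in SPA and 1.29 ± 0.178 in SA, where the stages did not differ beyond their spread (exact adjusted p = 0.179). COL4A1 and COL4A2 averaged 0.587 and 0.576 FPKM in SPA and 1.21 and 0.940 in SA. The subcutaneous ratios thus compare low values, and these genes passed the filter only through their intramuscular levels. Within type VI, COL6A1/COL6A2 was 0.556 ± 0.0306 and 0.572 ± 0.0417 in IMPA and IMA, lower than the 0.879 ± 0.0614 and 0.758 ± 0.0541 of SPA and SA, and it fell with subcutaneous induction. COL6A3/COL6A1 fell from 0.841 ± 0.111 to 0.611 ± 0.0437 with intramuscular induction and was 0.641 ± 0.0277 and 0.640 ± 0.0683 in SPA and SA. No ratio passed when 1 of 6 single libraries was left out (IMPA1, IMPA3, IMPA5, SPA2, SPA3 or SPA5), since all adjusted values then rose above the threshold together. Of the 14 called comparisons, the 7 without overlap between groups passed without each of the other 14 libraries. The 7 with overlap did not. COL5A1/COL5A2 in IMA vs SA was lost without IMA1, IMA3, IMA4, IMA5, SA1, SA2, SA4 or SA5, and COL5A1/COL1A1 without IMPA2, IMA2, IMA3, IMA4 or IMA5 in IMA vs IMPA, without SPA1, SA1, SA2, SA4 or SA5 in SA vs SPA and without IMPA2 or SPA4 in IMPA vs SPA. COL6A1/COL6A2 in SA vs SPA was lost without SPA4, SA2, SA3, SA4 or SA5, and COL6A3/COL6A1 without IMPA4, IMA1, IMA2, IMA4 or IMA5 in IMA vs IMPA and without IMPA4 or SPA4 in IMPA vs SPA.

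**Figure D5:**
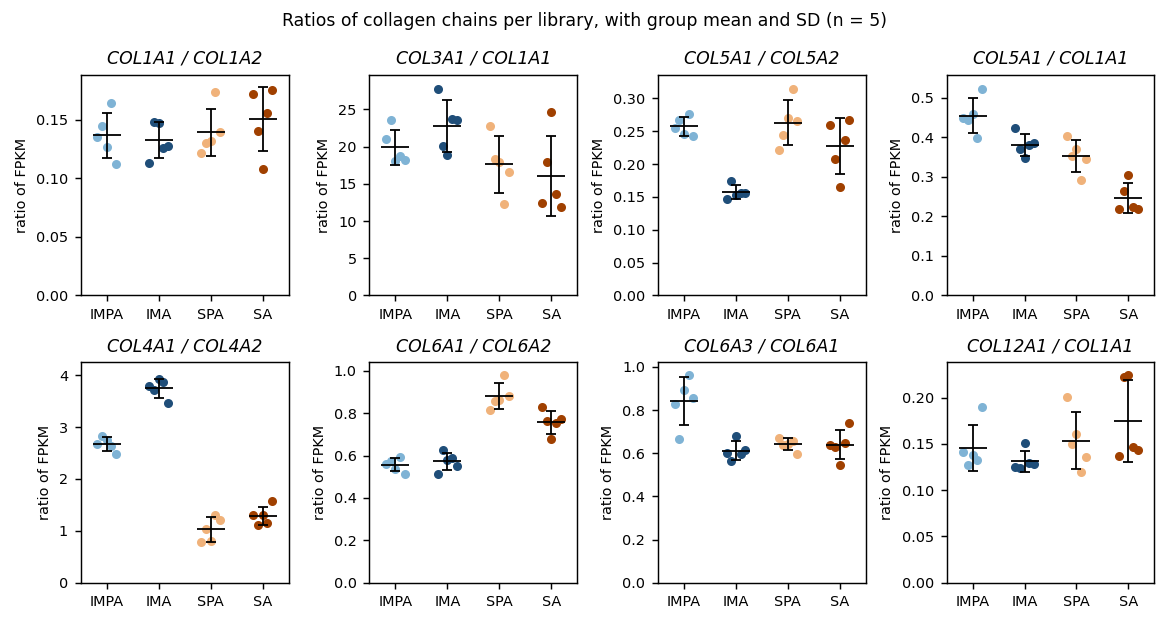
Ratio of FPKM between collagen chains in each library (points), with the group mean and SD (n = 5 libraries per group), on linear axes that start at 0. COL1A1/COL1A2 overlaps in all groups, whereas COL4A1/COL4A2 is highest in IMA, at 3.75 ± 0.183, and COL5A1/COL5A2 is lowest there.

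Genes that make and bind collagen were followed through 44 listed genes, of which 36 were tested. With intramuscular induction 6 rose and 20 fell, and with subcutaneous induction 9 rose and 15 fell, beside the 19.9% and 40.2% and the 26.1% and 26.0% of all genes given above. Of 13 genes for prolyl and lysyl modification, 2 rose and 8 fell in intramuscular cells and 4 rose and 5 fell in subcutaneous cells. The lysyl hydroxylase PLOD2 rose from 58.4 ± 2.58 to 108 ± 7.93 FPKM with intramuscular induction (0.87 ± 0.052, adjusted p = 9.18e-08), against 60.2 ± 1.73 and 57.3 ± 3.47 in SPA and SA. The prolyl 3-hydroxylase P3H1 rose from 36.0 ± 1.02 to 53.4 ± 1.75 with subcutaneous induction (0.56 ± 0.032, adjusted p = 3.14e-08), and so did SERPINH1, the collagen chaperone HSP47, from 225 ± 11.2 to 328 ± 9.29 (0.54 ± 0.038, adjusted p = 1.94e-07). In intramuscular cells SERPINH1 fell (-0.23 ± 0.044, adjusted p = 7.15e-04), and TMEM38B, an ion channel of the endoplasmic reticulum needed for collagen modification, rose by 0.41 ± 0.043 (adjusted p = 8.74e-06).

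Of 7 propeptide processing genes, 5 fell and none rose in intramuscular cells, beside 40.2% and 19.9% of all genes, led by the procollagen N-proteinase ADAMTS14, which fell from 10.9 ± 1.24 to 5.25 ± 0.292 FPKM (-0.93 ± 0.068, adjusted p = 5.01e-07). In subcutaneous cells 1 rose and 3 fell, beside 26.1% and 26.0%, and PCOLCE2, an enhancer of the C-proteinase, rose by 0.18 ± 0.043 (adjusted p = 0.00382). Of 4 cross-linking oxidases, 2 rose and 2 fell in intramuscular and 1 rose and 3 fell in subcutaneous cells. LOXL1 fell, with a log2 change of -0.50 with intramuscular induction (adjusted p = 2.90e-07), and LOXL3 changed by -0.20 with subcutaneous induction (adjusted p = 7.16e-04). Of 5 collagen receptors, 3 fell and none rose in intramuscular cells, and 3 fell and 1 rose in subcutaneous cells. The one that rose was ITGB1, the beta chain of the collagen-binding integrins, named after its value was seen (0.44 ± 0.10, adjusted p = 0.00336). DDR2, the receptor kinase for fibrillar collagen, fell from 56.6 ± 4.05 to 40.7 ± 1.93 and from 116 ± 4.87 to 67.1 ± 4.33 FPKM (-0.47 ± 0.053 and -0.78 ± 0.047, adjusted p = 1.55e-05 and 4.24e-08).

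Within groups, some collagens shared their highest and lowest libraries and others did not. For COL1A1, COL1A2, COL5A1, COL6A1, COL6A2 and COL6A3, 6 genes chosen for this pattern after their values were seen, SPA1 was the lowest and SPA4 the highest SPA library in all 6, and SA3 was the lowest SA library in all 6. Other fibrillar genes went otherwise, since COL5A2 was lowest in SPA4 and highest in SA3, and COL11A1, COL5A3 and COL24A1 were highest in SPA1. Of the 24 tested genes, SA3 was the lowest SA library for 14 and SPA1 the lowest SPA library for 12, while IMA1 was the lowest IMA library for 14 and IMA3 the highest for 13. SPA1 and SA5 also lost fewer reads in filtering than the other subcutaneous libraries. Without both of them, 17 collagen genes were called in SA vs SPA (9 rose and 8 fell) and 22 in IMPA vs SPA (12 higher and 10 lower). With all libraries 16 and 20 were called, beside 52.1% and 75.1% of all genes. The shares of all genes without these libraries are not given here, so the counts are not read as a result about collagens. The coefficient of variation within a group had a median of 9.03% in IMPA, 9.60% in IMA, 9.32% in SPA and 11.8% in SA.

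The split into transcripts was less stable than the sum. More than 1 transcript was above 0 for 16 of the 24 tested genes. For COL15A1 the share held by XM_018052229.1 ran from 0.112% to 100% across libraries, and for COL6A3 that of XM_018040727.1 from 0.979% to 88.1%, while the sums over transcripts varied far less. In SPA4, where COL6A3 was highest, XM_018040727.1 held 84.6 FPKM of the gene's 107. With transcripts summed, 16 collagen genes passed in SA vs SPA, beside 52.1% of all genes. With only the most abundant transcript of each gene, where the share of all genes is not given, 10 passed (7 rose and 3 fell). COL23A1 fell below the filter there. The calls of COL1A2 (0.27, adjusted p = 0.0833), COL5A3 (0.040, adjusted p = 0.830), COL6A1 (-0.43, adjusted p = 0.0803), COL15A1 (-0.30, adjusted p = 0.796) and COL16A1 (-1.84, adjusted p = 0.0613) were lost there. COL1A2, COL3A1, COL5A1 and COL6A1 had a single transcript above 0, so their values do not depend on this split, although their adjusted p moves with the other genes.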

How the data were processed

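Stranded RNA-seq libraries of 20 cell samples were used. The authors aligned reads to the goat genome ARS1 with HISAT2 2.0.4, assembled transcripts with Scripture and Cufflinks, and deposited FPKM per transcript, calculated with StringTie 1.3.1, Ballgown and Cuffdiff; GATK 2.6-5 is also named in the submitters' processing notes, without a role. Only the mRNA table was used. Nothing was realigned, no count was available, and no steps of whole reads were seen in the low values, so depth per value is unknown. No other normalization was applied, and no libraries held identical values.

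FPKM was summed per gene symbol, and the 11432 genes that averaged 1 FPKM or more across all libraries entered the tests as log2(FPKM + 1), a scale that understates changes of low genes. Groups came from the sample titles. Each pair of groups was fitted alone, and the interaction of stage and cell type over all 20 libraries, with limma 3.58.1 (moderated test with a variance trend) under R 4.3.3. The Benjamini-Hochberg adjustment ran over all genes tested, and adjusted p values in the text are limma's unless an exact test is named, with 0.05 as the threshold. Log2 ratios of chains, without pseudocount, entered two-sided exact permutation tests. Other steps used Python 3.11.15, numpy 2.4.6, pandas 2.3.3, scipy 1.17.1 and matplotlib 3.10.9. The fits were tested on simulated data.

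Genes given in every library were the 3 most abundant of each class and the 3 with the smallest p in each comparison; of the collagen-making and collagen-binding lists, the member with the smallest p in each list and stage comparison was named. The members, gene lists and marker lists were chosen with earlier results of these data known. Gene identifiers of all 44 members were found in RefSeq (assembly ARS1.2), which was used for gene order only. P4HA2 and MIA2 of the collagen-making lists and MYH3 and FABP4 of the marker lists were not matched by symbol. Replicate numbers are shared between groups, but correlations of deviations from group means between libraries of one number ran from -0.242 to 0.122. In IMA vs IMPA they ran from 0.0417 to 0.121, and those between unlike numbers from -0.168 to 0.119. There 3 libraries were closest to their own number, against 1 in SA vs SPA, 2 in IMPA vs SPA and 0 in IMA vs SA. As no goat is named for a number, libraries were not paired, and a shared goat is not excluded. Alternatives were other filters on low values (an average of 0.1 FPKM or more, or none), quantile normalization, upper-quartile scaling, a pseudocount of 0.1, no variance trend, the most abundant transcript of each gene, 1 fit of all 4 groups, a replicate block, the mapped share as a covariate, and dropping single libraries or the pair SPA1 and SA5. For the ratios they were a pseudocount of 1, the most abundant transcript and leaving out each library.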

Additional observations from a re-analysis of the deposited data

Results flagged for a closer look

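A sample far from the other 4 of its group was seen in 10 of the 96 groups examined, that is 24 genes in 4 groups, where chance alone marks about 1 in 20. IMA3 was the far sample for 4 genes, high for COL4A1 (21.0 FPKM), COL8A1 (10.9) and COL8A2 (16.4) and low for COL14A1 (37.4). The others were COL6A3 in IMPA4 (78.1, high), COL16A1 in SA2 (45.1, low), COL15A1 in SPA4 (6.57, high) and SA4 (4.06, high), COL18A1 in SPA5 (1.84, low) and COL7A1 in SPA2 (2.23, high).

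The change with induction differed between cell types, by the interaction in limma, for 15 collagen genes. The difference of log2 changes, intramuscular minus subcutaneous, was positive for COL5A3 (1.17), COL14A1 (0.93), COL15A1 (0.75), COL27A1 (0.59), COL7A1 (0.53), COL6A1 (0.52), COL5A2 (0.46), COL18A1 (0.38) and COL24A1 (0.33). It was negative for COL11A1 (-1.76), COL8A1 (-1.12), COL21A1 (-0.998), COL4A2 (-0.74), COL12A1 (-0.60) and COL4A1 (-0.51). The adjusted p was largest for COL6A1, at 0.0222. With the mapped share as a covariate 8 of the 15 were not called, namely COL4A1, COL4A2, COL5A3, COL6A1, COL7A1, COL12A1, COL14A1 and COL24A1. The value of COL5A3 was then 0.27 (adjusted p = 0.445 in limma). COL21A1 was at or near 0 in the subcutaneous libraries, and COL27A1 fell in both cell types.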

How the results depend on the processing

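The number of collagen genes called kept within 1.5 times its value under other filters, a pseudocount of 0.1, both scalings, no variance trend, 1 fit of all groups, the replicate block and without SPA1 and SA5 together. The exceptions were the mapped share as a covariate (7 called in IMA vs IMPA, 12 in IMPA vs SPA and 9 in the interaction) and the most abundant transcript (10 in SA vs SPA). Counts in this section stand without the share of all genes, so they show only how the collagen calls moved with the setting. Leaving out single libraries gave 15 to 17 in IMA vs IMPA, 14 to 16 in SA vs SPA, 18 to 22 in IMPA vs SPA, 18 to 21 in IMA vs SA, 15 to 16 in the interaction, and 0 to 14 chain ratios, 0 without IMPA1, IMPA3, IMPA5, SPA2, SPA3 or SPA5, where 4 against 5 libraries allow no smaller exact p than 0.0159.

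With the replicate block 18, 15, 21, 19 and 15 collagen genes were called in IMA vs IMPA, SA vs SPA, IMPA vs SPA, IMA vs SA and the interaction. COL3A1 in IMA vs IMPA (adjusted p = 0.0378), COL1A2 in IMPA vs SPA (0.0374) and COL6A2 in IMA vs SA (0.0446) were then called in limma, COL1A2 in SA vs SPA (0.0631) and COL1A1 in IMA vs SA (0.0526) were not, and no other call changed. The numbers share no known goat.

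With the mapped share as a covariate the log2 value turned sign in IMA vs IMPA for COL11A1 (0.34), COL1A1 (-0.28), COL3A1 (-0.78), COL4A1 (0.21), COL6A1 (-0.49) and COL6A2 (-0.29), in SA vs SPA for COL1A1 (-0.37), COL1A2 (-0.14) and COL21A1 (0.0136), in IMPA vs SPA for COL15A1 (-0.40), COL18A1 (-0.55), COL1A1 (0.85), COL6A1 (0.21), COL6A2 (0.45) and COL8A2 (-0.36), in IMA vs SA for COL6A1 (0.0381), and in the interaction for COL3A1 (-0.77), COL6A1 (-0.18), COL6A2 (-0.21) and COL6A3 (-0.13). With the most abundant transcript it turned for COL15A1 in IMA vs IMPA (-0.15) and IMPA vs SPA (-0.0807), COL16A1 in IMA vs SA (0.12), COL6A3 in the interaction (-1.44) and the ratio COL12A1/COL1A1 in IMA vs IMPA (0.0067). Quantile normalization turned COL3A1 in IMA vs IMPA (-0.32), IMA vs SA (-0.32) and the interaction (-0.64), COL4A1 in IMA vs IMPA (0.0188) and COL24A1 in IMPA vs SPA (-0.12), and upper-quartile scaling COL4A1 in IMA vs IMPA (0.0018) and COL3A1 in IMPA vs SPA (-0.0202). The cause was not tested.

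Leaving out single libraries turned the sign only of values that had not passed the test. These were COL4A1 in IMA vs IMPA (-0.10 to 0.0015), COL3A1 in IMPA vs SPA (-0.0578 to 0.12), COL21A1 in SA vs SPA (-0.0183 to 0.0041), COL3A1 (-0.0411 to 0.13) and COL6A3 (-0.0831 to 0.19) in the interaction, and the log2 ratios COL1A1/COL1A2 in IMA vs IMPA (-0.11 to 0.0274) and IMPA vs SPA (-0.0965 to 0.0537), COL5A1/COL5A2 (-0.0825 to 0.0443) and COL12A1/COL1A1 (-0.16 to 0.0392) in IMPA vs SPA and COL6A3/COL6A1 in SA vs SPA (-0.0607 to 0.0479). Single libraries also ended the calls of COL14A1 in IMPA vs SPA (without IMPA2, SPA1 or SPA5) and COL5A1 in IMPA vs SPA (without IMPA2, IMPA4 or SPA2). New calls appeared for COL1A1 and COL1A2 in IMPA vs SPA without SPA1, COL6A1 and COL6A3 in IMA vs SA without SA3, COL6A2 in the interaction without SPA1 or SA4, and the ratios COL12A1/COL1A1 without IMA3 and COL3A1/COL1A1 without SA3 in IMA vs SA. Depth limits the genes below the filter, whose values at 0 cannot be told apart from levels too low for their libraries.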

Other observations

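Several collagen genes lie next to each other, with no other protein-coding gene between them in RefSeq, and 6 such pairs were among the members. COL9A1 and COL19A1, which encode fibril-associated chains, were both too low to be tested but were measured together. COL9A1 held 0.121 to 0.206 FPKM in IMPA and 0.388 to 0.713 in IMA, and COL19A1 0.0962 to 0.2995 and 0.284 to 0.654. In subcutaneous libraries they reached at most 0.0263 and 0.0140, and COL19A1 was at 0 in all SA libraries. COL9A2 and COL9A3, the partners of COL9A1 in type IX collagen, overlapped between cell types. COL9A2 held 0.0149 to 0.195 FPKM in IMPA and 0 to 0.104 in IMA, against 0 to 0.0525 in SPA and 0 to 0.0431 in SA, and COL9A3 was at 0.103 to 0.227 in IMPA, 0.179 to 0.391 in IMA, 0.141 to 0.359 in SPA and 0.152 to 0.287 in SA. COL3A1 and COL5A2 are neighbours as well, and their changes with induction were 0.26 ± 0.11 and 0.53 ± 0.034 in intramuscular and 0.21 ± 0.048 and 0.065 ± 0.031 in subcutaneous cells (log2, SE). The genes in this paragraph were chosen after their values were seen, and no test of shared position was made.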
